A study of Mus musculus with 6 samples.

Results

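Rab GTPase genes were followed in mouse fetal liver with and without the locus of the microRNAs miR-144 and miR-451, with Rab14, a gene of early endosomes and the recycling route, as the gene of particular interest. A gene was a member if its symbol in the deposited gene table was exactly Rab followed by a number and an optional letter, which chose 56 of 34542 genes by name alone and used no measured value. Rab-like genes, Rab-interacting genes and genes that carry another symbol fell outside the rule. The study measured polyadenylated RNA of fetal liver cells by RNA sequencing in 6 libraries from C57BL/6J embryos. The wild-type group (WT) had 3 libraries, here called WT1, WT2 and WT3, and the group labelled KO, which lacks that locus, had 3 libraries, called KO4, KO5 and KO6 by their numbers in the labels. No treatment or added transgene is named for either group. The RNA preparations started from equal numbers of fetal liver cells, and the labels name no sort by cell type. The sources used here give neither the embryonic age nor whether a library came from 1 embryo or from a pool, so every p-value measures the spread between these libraries only.

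Rab proteins are small GTPases that mark membranes of the secretory and endocytic routes. A guanine nucleotide exchange factor (GEF) loads a Rab with GTP on its membrane, the loaded Rab binds effectors that tether, move or fuse vesicles, and a GTPase-activating protein (GAP) ends the cycle, after which a GDP dissociation inhibitor (GDI) draws the Rab back into the cytosol. Erythroblasts, the main cells of the fetal liver at mid-gestation, take up iron with the transferrin receptor, which passes through Rab-marked early and recycling endosomes, and lose their organelles as they mature.

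The locus encodes miR-451a and miR-144, of which miR-144 gives a mature strand from each arm. MicroRNAs pair with messenger RNAs through the seed, bases 2 to 8, so the mature sequences and the matches found in the Rab14 3′ untranslated region (UTR) are shown together. The mature sequences are those of RefSeq on build GRCm38.p6, from the plus strand of chromosome 11, with the seed in capitals.
miR-451a, chr11:78073186-78073207: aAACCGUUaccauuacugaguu
miR-144-3p, chr11:78073047-78073066: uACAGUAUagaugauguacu
miR-144-5p, chr11:78073010-78073032: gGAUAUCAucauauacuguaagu
Rab14 lies on the minus strand of chromosome 2 (GENCODE, GRCm38, 35180205 to 35201120) and overlaps no other annotated gene. Its longest annotated 3′ UTR has 2065 bases. Each site is printed as 30 bases that end 1 base past the seed match, with the matching bases in capitals.
Rab14, miR-451a site at UTR base 350, chr2:35181914-35181943, minus strand: ttggcaaggctttgtctcgctgtACGGTTt
Rab14, miR-144-3p site at UTR base 1056, chr2:35181208-35181237, minus strand: tgttataggctgcattcttgcctTACTGTA
The first is a 6mer, which matches bases 2 to 7 of miR-451a. The second is a 7mer-A1, which matches bases 2 to 7 of miR-144-3p and is followed by an A. Neither pairs with base 8 of its microRNA, as the 8mer and 7mer-m8 types do.

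The 6 libraries held 24659978 to 44700229 counts in genes. Mir144 had 51, 47 and 29 counts in the WT libraries and 1, 1 and 0 in the KO libraries, and Mir451 had 323, 446 and 418 in WT and 3, 2 and 4 in KO, so the locus matched the labels in every library. The level of each cell type's markers in a library was taken as the mean log2(CPM + 1) of fixed lists, where CPM is the usual count relative to library size, with libraries scaled by edgeR's TMM method (a trimmed mean of log ratios). The 20 hepatocyte markers ran from 7.23 to 9.91 in WT and from 7.85 to 9.59 in KO, highest in WT2 and KO6. The 17 erythroid markers ran from 9.83 to 10.29 in WT and from 9.55 to 9.74 in KO, without overlap. All 17 had a log2 change below 0, with a median of -0.55. By the edgeR test 3 of them fell, where 1.45% of all tested genes did. The 12 endothelial markers all had a log2 change above 0, with a median of 0.15, and none passed the edgeR test. No marker on any list was at 0 in all libraries.

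Rab14 was higher in the KO in every library. Its level was 118, 123 and 110 CPM in the WT libraries and 161, 171 and 168 CPM in the KO libraries, a mean of 117 ± 6.92 against 167 ± 4.89 (SD, n = 3 each). The groups did not overlap, and the gap between the highest WT and the lowest KO library was wider than the range within either group. The log2 change was 0.47 ± 0.08 (SE), with an adjusted p of 0.0317 by edgeR's quasi-likelihood test after Benjamini-Hochberg (BH) adjustment over 15105 genes. It was the largest increase among the tested Rab genes, while 704 of the 15105 tested genes had a larger one. In bulk RNA such as this, fewer cells of a type and less RNA per cell cannot be told apart.

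Rab14 also took a larger part of the counts of its own family, a measure that does not depend on how libraries are scaled. It made up 3.82%, 4.50% and 3.86% of all Rab counts in the WT libraries and 5.76%, 5.75% and 5.95% in the KO libraries. Exact 95% Clopper-Pearson intervals, which cover counting error only, ran from 3.71% to 4.63% across the WT libraries and from 5.62% to 6.08% across the KO libraries. The mean share was 4.06% ± 0.382 in WT and 5.82% ± 0.111 in KO (SD, n = 3), with a two-sided exact permutation p of 0.1, the smallest that 3 against 3 can give. The family as a whole summed to 2887 ± 173 CPM in WT and 2866 ± 90.6 CPM in KO, a difference smaller than the spread between libraries.

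The Rab14 call depended on having all of the libraries except WT2. The adjusted p from edgeR was 0.0120 with WT2 left out, but 0.141 with WT1, 0.154 with WT3, 0.111 with KO4, 0.154 with KO5 and 0.125 with KO6 left out. With any 1 library other than WT2 left out, 0.0782% to 0.645% of all tested genes were called, against 3.28% with all 6. The unadjusted edgeR p of Rab14 ran from 0.00028 to 0.0072 over the 6 fits with 1 library left out. Its log2 change stayed between 0.42 and 0.52 in these 6 fits. When the mean of the hepatocyte markers entered the fit as a covariate it was 0.46 (edgeR adjusted p = 0.0014), and with WT2 and KO6 both left out it was 0.53 (edgeR adjusted p = 0.0147). The part of the lower erythroid marker level in the KO in this difference was not tested.

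Rab43, which works between the endoplasmic reticulum and the Golgi apparatus, was the 1 Rab gene that fell. Its level was 330, 275 and 278 CPM in the WT libraries and 180, 204 and 193 CPM in the KO libraries, a mean of 294 ± 30.8 against 193 ± 11.96 (SD, n = 3). Every KO library was below every WT library. The log2 change was -0.65 ± 0.10 (SE; edgeR adjusted p = 0.0310), and 529 of the tested genes had a lower one. By CPM it had the highest mean of the Rab genes in the WT, overlapping Rab8b at 280 ± 49.8. In the KO its mean was below those of Rab10 at 232 ± 13.2 CPM and Rab8b at 229 ± 17.5 CPM (SD, n = 3), which overlapped each other.

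Rab43 shares the limit of Rab14. The adjusted p from edgeR was 0.0163 with WT2 left out, but 0.110 with WT1, 0.111 with WT3, 0.0785 with KO4, 0.0778 with KO5 and 0.0661 with KO6 left out, and the log2 change lay between -0.70 and -0.56 in these 6 fits. On GRCm38, Rab43 lies on the minus strand of chromosome 6 (87788853 to 87812164), and 75.4% of its exon bases are shared with other gene models. The models that overlap it, 9930120I10Rik, Gm44423 and Gm45140, lie on the same strand. Counting could therefore differ between gene models.

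**Figure D1:**
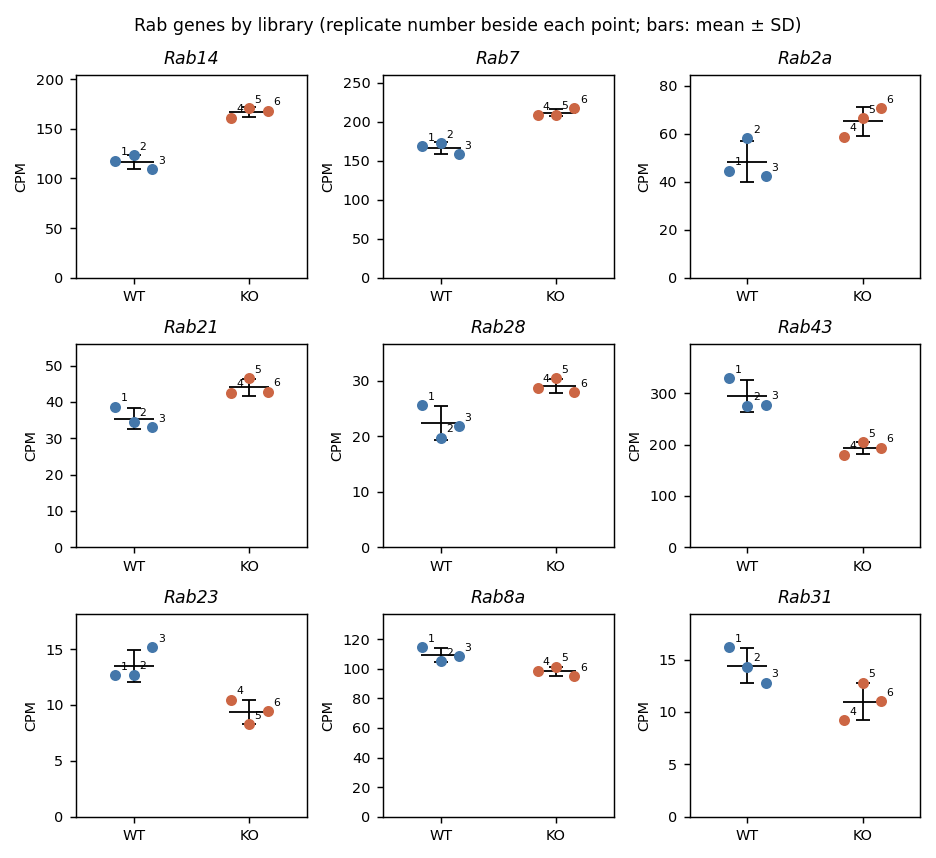
Level of the 9 Rab genes with an unadjusted p under 0.05 in each library, in CPM after TMM scaling, with 1 numbered point per library and black bars for the mean and SD of each group of 3. Rab14 sits at 110 to 123 CPM in the WT and 161 to 171 CPM in the KO, and Rab43 at 275 to 330 CPM in the WT and 180 to 204 CPM in the KO.

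Across the family, most Rab genes differed little between genotypes. Of the 56 members, 47 passed the filter on low counts and were tested. The other 9 (Rab15, Rab19, Rab25, Rab26, Rab33a, Rab39b, Rab3c, Rab40b and Rab9b) had at most 16 counts in any library. Rab14 rose, Rab43 fell and 45 did not pass the test. That is 1 of 47 in each direction, where 1.83% of all tested genes rose, 1.45% fell and 3.28% were called in either direction, so the family's share is near the background. The log2 changes ran from -0.65 to 0.47 with a median of -0.01, against -0.03 over all tested genes, and 44 of 47 lay within 0.5 of 0. At an unadjusted p under 0.05 there were 5 higher and 4 lower Rab genes, where 7.77% of the table was higher, 8.78% lower and 16.6% either. For 8 higher and 6 lower Rab genes WT and KO libraries did not overlap, where that held for 14.1% of the table upward, 8.63% downward and 22.7% in all.

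The count of called Rab genes moved with the background from setting to setting. It was 4 by DESeq2 (8.65% of all tested genes), 2 by limma-voom (3.24%), 2 with size factors in place of TMM (3.46%), 3 with library totals (5.3%), 2 with no filter on low counts (1.83%), 6 with the hepatocyte covariate (17.1%) and 5 with WT2 and KO6 both left out (9.41%). With 1 library left out, it was 5 for WT2 (9.77%) and 0 for WT1 (0.0904%), WT3 (0.0969%), KO4 (0.17%), KO5 (0.0782%) and KO6 (0.645%). Rab14 and Rab43 were among the calls in each of these settings that called any Rab gene. The further calls were Rab7 and Rab23 by DESeq2, Rab7 with library totals, Rab7, Rab23, Rab28 and Rab2a with the covariate, and Rab7, Rab2a and Rab8b with WT2 left out, alone or together with KO6.

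**Figure D2:**
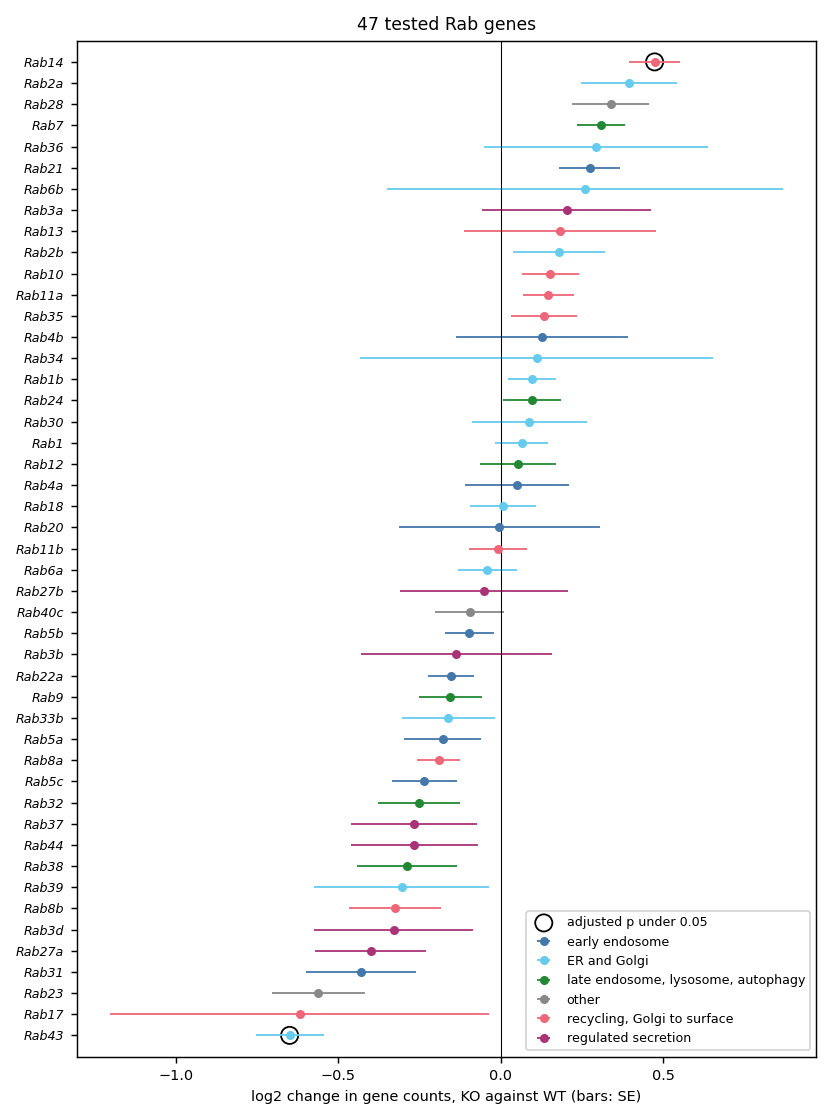
Log2 change of each tested Rab gene, KO against WT, with its standard error from edgeR, ordered by the change and colored by role. Rab14 at 0.47 and Rab43 at -0.65 are the genes with an adjusted p under 0.05, and the other 45 did not pass.

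Early endosome Rabs, which receive and sort cargo taken in from the surface, had 9 members, all tested, and none passed the test. Their median log2 change was -0.10. Before adjustment 1 lay higher and 1 lower with a p under 0.05, where 7.77% of the table was higher and 8.78% lower. Rab5c, which with Rab5a and Rab5b drives fusion of early endosomes, was at 242, 207 and 236 CPM in WT and 214, 206 and 178 CPM in KO, a log2 change of -0.24 (edgeR adjusted p = 0.309). The groups overlapped. Rab5a and Rab5b had log2 changes of -0.18 and -0.10. Rab21, linked to integrin traffic, was at 38.7, 34.6 and 33.0 CPM in WT and 42.6, 46.6 and 42.8 CPM in KO (log2 change 0.27, edgeR adjusted p = 0.212). Its groups did not overlap. Rab31, a Rab22-like protein, was at 16.2, 14.3 and 12.8 CPM in WT and 9.19, 12.8 and 11.03 CPM in KO (log2 change -0.43, edgeR adjusted p = 0.271), and its lowest WT and highest KO libraries were almost level. Rab4a, which returns cargo quickly to the surface, stayed at 15.2 ± 2.31 CPM in WT and 16.2 ± 1.94 CPM in KO (SD, n = 3).

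Rabs of recycling endosomes and of the route from the Golgi apparatus to the surface had 11 members, 9 tested, with a median log2 change of 0.13, and Rab14 was the 1 that rose. Rab11a, which marks the recycling endosome, was at 73.8 ± 2.63 CPM in WT and 83.9 ± 5.37 CPM in KO (SD, n = 3; log2 change 0.15, edgeR adjusted p = 0.437), and Rab11b had a log2 change of -0.01. Rab10, an exocytic Rab, was at 219, 187 and 204 CPM in WT and 224, 247 and 224 CPM in KO. Its groups were separate by a narrow margin, and the log2 change of 0.15 did not pass (edgeR adjusted p = 0.486). Rab8a, also exocytic, was at 114, 105 and 108 CPM in WT and 98.6, 101 and 95.1 CPM in KO (log2 change -0.19, edgeR adjusted p = 0.212). All 3 of its KO libraries were below the WT libraries. Its paralog Rab8b was at 324, 226 and 290 CPM in WT and 226, 248 and 214 CPM in KO, a wider spread in which the groups overlapped (log2 change -0.33, edgeR adjusted p = 0.326). Rab35, of the fast recycling route, had a log2 change of 0.13. Rab17, an epithelial Rab, had the second lowest log2 change of the family at -0.62 (edgeR adjusted p = 0.728), on levels of 1.004, 4.38 and 1.61 CPM in WT and 1.02, 1.55 and 2.14 CPM in KO. Its value rests on WT2, and without it the log2 change was 0.25.

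Late endosome, lysosome and autophagy Rabs had 7 members, 6 tested, with a median log2 change of -0.05 and none past the test. Rab7, which moves endosomes toward lysosomes, came nearest, at 168, 172 and 158 CPM in WT and 208, 209 and 217 CPM in KO. The groups were well apart, and the log2 change was 0.31 ± 0.07 (SE; edgeR adjusted p = 0.0907). Rab7 passed the threshold by DESeq2 (adjusted p = 0.00125), with edgeR on library totals (0.0333), with edgeR and the hepatocyte covariate (0.00974), with edgeR on the libraries other than WT2 and KO6 (0.0266), and with edgeR on those other than WT2 (0.0314). Rab9, which acts between late endosomes and the Golgi apparatus, and Rab32 and Rab38, which serve lysosome-related organelles, had log2 changes of -0.16, -0.25 and -0.29, and Rab24, linked to autophagy, 0.10.

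Rabs of the endoplasmic reticulum and Golgi apparatus had 16 members, 13 tested, with a median log2 change of 0.09, and Rab43 was the 1 call. Rab1, which with Rab1b takes vesicles into the Golgi apparatus, was at 180, 181 and 167 CPM in WT and 178, 192 and 197 CPM in KO. These overlapped, with a log2 change of 0.06 (edgeR adjusted p = 0.841), and Rab1b had 0.10. Rab2a, of the same early secretory route, was at 44.6, 58.1 and 42.3 CPM in WT and 58.7, 66.6 and 70.5 CPM in KO (log2 change 0.39, edgeR adjusted p = 0.252), with WT2 just below the lowest KO library. Rab6a, of traffic within and from the Golgi apparatus, and Rab18, of the endoplasmic reticulum and lipid droplets, had log2 changes of -0.04 and 0.01. Rab39b was listed with 0 counts in all WT libraries and 4, 1 and 1 counts in KO, too few to test.

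Rabs of regulated secretion, which dock granules in blood, nerve and gland cells, had 9 members, 7 tested, with a median log2 change of -0.27. 6 of the 7 were below 0, and none passed the test or reached an unadjusted p under 0.05. Rab27a, which docks lytic and dense granules, was at 33.3, 28.9 and 25.7 CPM in WT and 19.2, 27.7 and 21.5 CPM in KO (log2 change -0.40, edgeR adjusted p = 0.314), with overlap between the groups. Rab44, Rab3d and Rab37, of mast cells and other granule-bearing cells, had log2 changes of -0.27, -0.33 and -0.27, and Rab27b had -0.05. Of the markers of granule-bearing cells, 14 of 14 for neutrophils had a log2 change below 0, with list means of 6.27 to 7.06 in WT and 5.603 to 6.76 in KO, and so had 9 of 10 tested mast cell and basophil markers, with list means of 2.56 to 2.91 in WT and 2.31 to 2.49 in KO. The 14 megakaryocyte and platelet markers had 10 below 0 and 4 above, a median log2 change of -0.04 and list means of 3.93 to 4.71 in WT and 3.95 to 4.56 in KO. Of these lists, 0 neutrophil, 1 mast cell and basophil and 0 megakaryocyte and platelet markers passed the edgeR test, where 3.28% of all tested genes did. The part of those cells in the Rab values was not tested.

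3 tested members stood outside these roles. Rab23, known as a negative regulator of Hedgehog signaling, was at 12.6, 12.7 and 15.1 CPM in WT and 10.5, 8.28 and 9.42 CPM in KO, without overlap (log2 change -0.56, edgeR adjusted p = 0.107). Rab28, known from photoreceptors and cilia, was at 25.6, 19.7 and 21.8 CPM in WT and 28.8, 30.5 and 27.9 CPM in KO, also without overlap (log2 change 0.34, edgeR adjusted p = 0.224). Rab40c, which binds a ubiquitin ligase complex, had a log2 change of -0.10.

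Some Rab genes, of low and of high level, were highest in the libraries where the hepatocyte markers were. Of the 47 tested members, 17 (36.2%) were highest in WT2 within the WT and in KO6 within the KO. These libraries had the highest hepatocyte marker level. The same order held for 28.0% of all tested genes, so it is not particular to Rab genes. Rab1, at 180, 181 and 167 CPM in WT and 178, 192 and 197 CPM in KO, was among the 17, though its WT1 and WT2 were almost level. Rab34 was at 1.62, 4.05 and 1.16 CPM in WT and 1.96, 1.79 and 3.90 CPM in KO. Rab13, of tight junctions, was at 1.62, 2.90 and 1.69 CPM in WT and 2.06, 2.32 and 2.90 CPM in KO. Both were picked as examples after their values were seen, and the same libraries stood out in each group.

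Compared between genes, CPM was divided by the length of the longest coding transcript in kilobases. Rab5c had the highest mean in both genotypes, at 116 CPM per kb in WT and 101 in KO, followed by Rab7 at 77.0 and 97.9. In the WT every Rab5c library was above every Rab7 library, while in the KO their ranges overlapped and Rab7 was the higher in KO6, so that order is not settled. In the WT the order went on with Rab43 (63.9 CPM per kb), Rab1 (62.3), Rab8b (59.1) and Rab10 (57.8). The libraries of these 4 overlapped, so their order is not settled. Rab14 ranked 10 in the WT at 37.9 CPM per kb, with a range of 35.6 to 40.0 that overlapped Rab1b at 36.7 to 40.7, and 5 in the KO at 54.1 CPM per kb, with a range of 52.3 to 55.4 that overlapped Rab8b at 45.1 to 52.4. Rab43 went from rank 3 to rank 10, at 41.8 CPM per kb in the KO. By CPM, 12 members had a WT mean of at least 100, 20 between 10 and 100, 12 between 1 and 10, and 12 under 1. The 10 highest took 65.6% of the WT Rab CPM.

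**Figure D3:**
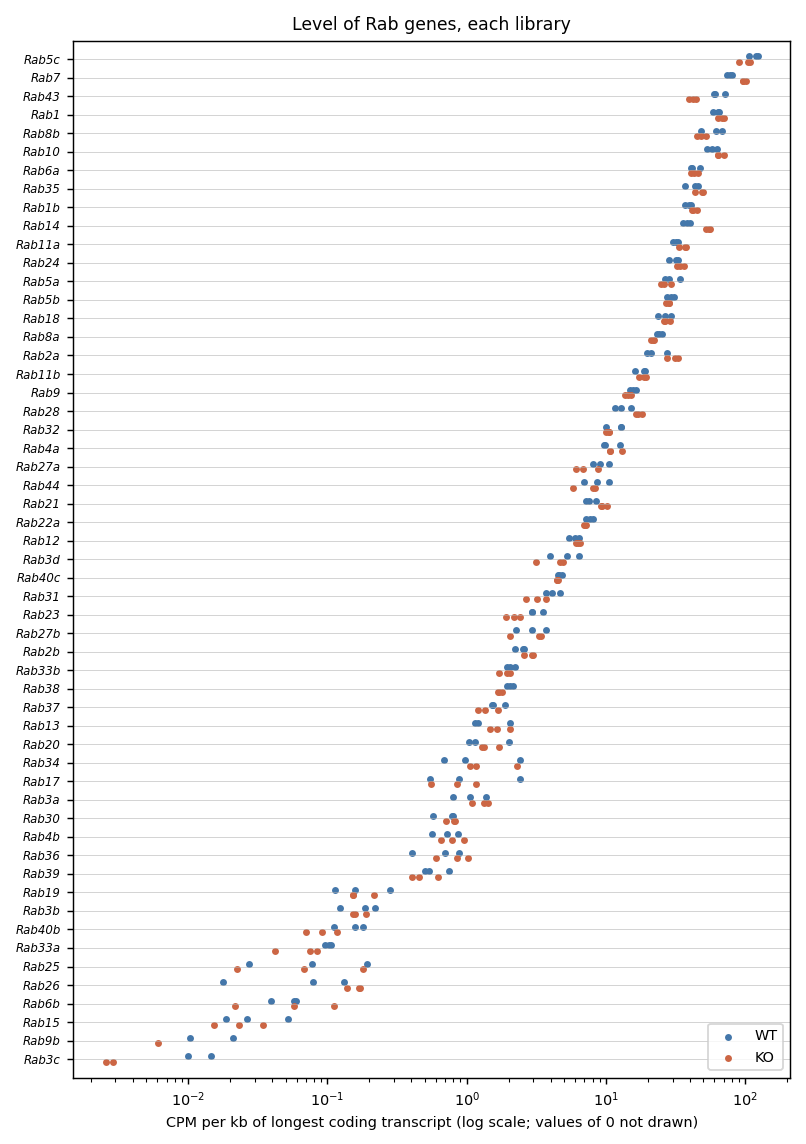
Level of Rab genes in WT and KO, in CPM per kb of the longest coding transcript on a log axis, with 1 point per library and values of 0 not drawn. Rab14 goes from 37.9 to 54.1 CPM per kb and Rab43 from 63.9 to 41.8, while Rab5c has the highest mean in both genotypes, with KO libraries that overlap those of Rab7.

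Intron counts, which stand for unspliced RNA as far as they do not come from retained introns or other transcripts, were listed for all 56 members. For Rab14 they were 116 ± 14.3 CPM in WT and 124 ± 10.2 CPM in KO (SD, n = 3), a log2 change of 0.14 (edgeR adjusted p = 0.859). For Rab43 they were 241 ± 45.2 CPM in WT and 222 ± 31.2 CPM in KO, a log2 change of -0.09 (edgeR adjusted p = 0.969). On GRCm38, 23.6% of the intron bases of Rab43 lie in exons of other gene models, against 0.0% for Rab14. The intron counts of Rab43 may therefore include other transcripts. For Rab14, the exons of all its annotated transcripts cover 13589 bases, against 3081 in its longest coding transcript. What counts as exon or intron in Rab14 thus depends on the gene models used, which the sources here do not give. The difference between the exonic and the intronic change was tested in 1 edgeR fit over exon and intron counts. It was 0.33 ± 0.15 (SE) for Rab14, with an unadjusted p of 0.0548, and -0.57 ± 0.21 (SE) for Rab43, with an unadjusted p of 0.0267, and neither passed after adjustment. The exonic and intronic changes of either gene were thus not shown to differ.

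Over the family, 0 of 49 Rab genes tested in introns passed by edgeR and 1 by DESeq2, where 0.72% of 11803 genes did by edgeR and 2.88% by DESeq2. At an unadjusted p under 0.05, edgeR gave 1 higher (Rab4b) and 3 lower (Rab4a, Rab27a and Rab19), where 5.39% of those genes were higher, 5.45% lower and 10.8% either. Rab19 had only 10, 12 and 14 intron counts in WT and 9, 4 and 0 in KO, and its gene counts were too low to test. Rab4b had 242 to 560 intron counts per library against 24 to 47 gene counts, and 65.0% of its exon bases are shared with other gene models. The gene called by DESeq2 was Rab4a (adjusted p = 0.0390), whose introns were at 66.7 ± 8.70 CPM in WT and 40.0 ± 9.28 CPM in KO (SD, n = 3; log2 change -0.71, edgeR adjusted p = 0.219). Its gene count had a log2 change of 0.05, and the difference of 0.78 between exonic and intronic change had an unadjusted edgeR p of 0.0154. In the test of that difference, 0 of 45 Rab genes passed by edgeR and 0 by DESeq2, as did 0.0% of 11100 genes by edgeR and 0.351% by DESeq2. There, 1 Rab gene was higher (Rab4a) and 1 lower (Rab43) at an unadjusted p under 0.05, where 1.67% of those genes were higher, 1.5% lower and 3.17% either.

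**Figure D4:**
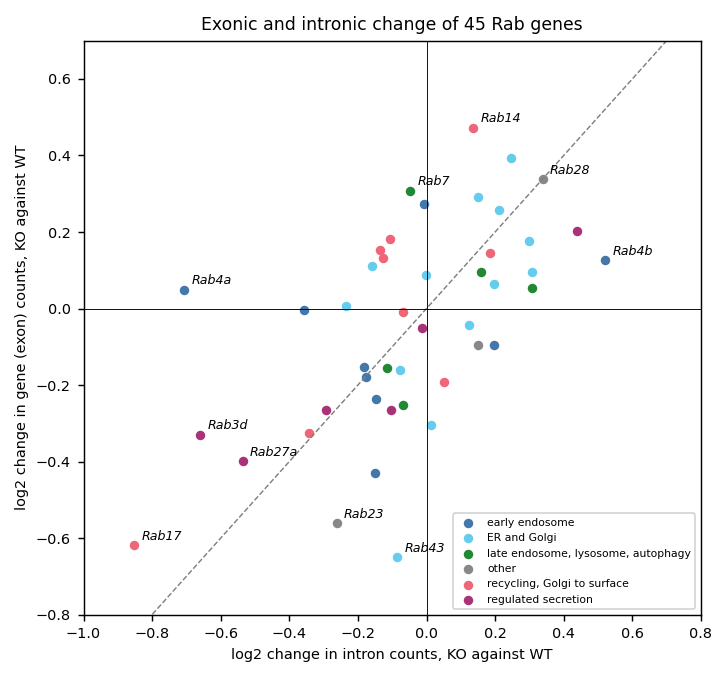
Log2 change in gene counts (vertical) against log2 change in intron counts (horizontal) for Rab genes tested in both, KO against WT, with 1 point per gene, colors for roles and a dashed line of equal change. Rab14 lies at 0.47 in gene counts and 0.14 in introns, Rab43 at -0.65 and -0.09, and Rab4a at 0.05 and -0.71.

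Seed matches were searched in the longest annotated 3′ UTR of each gene, on the transcript's strand only. The letters were AACGGTT for miR-451a, ATACTGT for miR-144-3p and TGATATC for miR-144-5p as 7mer-m8 matches, with a following A for an 8mer. None of the 56 members held an 8mer or 7mer-m8 match for miR-451a, which 2.005% of tested genes with a UTR did. With the weaker 7mer-A1 and 6mer types there were 2 members, Rab14 and Rab30 (log2 change 0.09), which is 4.26% of the tested members against 7.95% of tested genes.

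For miR-144-3p, 10 members held an 8mer or 7mer-m8 match, 9 of them tested. That is 19.1% of tested members against 13.0% of tested genes, and members had longer UTRs, with a median of 1950 bases against 1148. The 8mer matches of Rab27a and Rab32 and the first 7mer-m8 match of Rab21, whose groups did not overlap, are shown to set beside the Rab14 site.
Rab27a, 8mer, chr9:73095874-73095903, plus strand: gagaatccagatttcaaaatccATACTGTA
Rab32, 8mer, chr10:10545280-10545309, minus strand: cgggcacttaggaagacccactATACTGTA
Rab21, 7mer-m8, chr10:115290352-115290381, minus strand: aattgtatcacttctaaacagcATACTGTt
Rab27a and Rab32 had log2 changes of -0.40 and -0.25, and Rab21 had 0.27. The other tested members with an 8mer, Rab18 and Rab30, had 0.01 and 0.09. Of the 9 tested members with an 8mer or 7mer-m8 match, 5 were above 0. Their median log2 change was 0.01, against -0.05 for the members without such a match. None of the 9 passed the test. Rab43 held a 6mer for miR-144-3p and is the gene that fell. With the 7mer-A1 and 6mer types counted, 53.2% of tested members held a miR-144-3p match, against 37.9% of tested genes. For miR-144-5p, 5 members held an 8mer or 7mer-m8 match, 4 of them tested (8.51% of tested members against 5.81% of tested genes), with a median log2 change of -0.07. A match is only a run of letters in an annotated UTR, and no binding data were analysed here.

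The proteins that switch Rabs on and off and act on them were described from a list of 123 genes, 118 of them tested. Of these, 3 rose and 0 fell, where 1.83% of all tested genes rose and 1.45% fell. Before adjustment, 18 lay higher and 10 lower with a p under 0.05, where 7.77% of the table was higher and 8.78% lower. DESeq2 called 17 in either direction, against 8.65% of all tested genes. The median log2 change of the list was -0.03, equal to that of all tested genes.

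Madd, the GEF of Rab3 and Rab27 proteins, was at 50.6, 46.1 and 51.0 CPM in WT and 77.7, 76.9 and 71.6 CPM in KO. The groups were far apart (log2 change 0.58 ± 0.07 SE, edgeR adjusted p = 0.0184). Rab3gap1, catalytic subunit of a complex that is a GAP of Rab3 and a GEF of Rab18, was at 51.8, 47.4 and 54.7 CPM in WT and 78.2, 79.2 and 75.0 CPM in KO, with no overlap (log2 change 0.56 ± 0.07 SE, edgeR adjusted p = 0.0205). St5, which encodes a DENN domain protein of the Rab GEF class, was at 28.2, 37.3 and 27.5 CPM in WT and 51.0, 59.5 and 62.1 CPM in KO, again with no overlap (log2 change 0.85 ± 0.15 SE, edgeR adjusted p = 0.0403). Each lost the call by edgeR without some library. With WT1, WT3, KO4 or KO5 left out in turn, the adjusted p was 0.0975, 0.0951, 0.0627 and 0.0778 for Madd, 0.109, 0.0898, 0.0666 and 0.0778 for Rab3gap1, and 0.168, 0.154, 0.117 and 0.183 for St5. With KO6 left out it was 0.0509 for Rab3gap1 and 0.158 for St5, while Madd kept the call at 0.0453.

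Of the 34 genes listed as GAPs, which leaves out Rab3gap1 because it was listed with the GEFs, none passed in gene counts. Before adjustment 8 lay higher and 4 lower with a p under 0.05, where 7.77% of the table was higher and 8.78% lower. Evi5, a GAP with a role in cell division, was at 246, 204 and 214 CPM in WT and 157, 175 and 168 CPM in KO (log2 change -0.45, edgeR adjusted p = 0.0694). Its intron counts fell, from 618 ± 61.9 to 292 ± 27.6 CPM (SD, n = 3; log2 change -1.05, edgeR adjusted p = 0.0220), the 1 intron call in the list. That intron call was lost with WT1 (edgeR adjusted p = 0.0561), WT2 (0.0873), KO4 (0.129), KO5 (0.121) or KO6 (0.0983) left out. Of the other genes with the smallest unadjusted p, the GAP genes Tbc1d17, Rabgap1 and Tbc1d10a had log2 changes of 0.36, 0.34 and 0.55 and the GEF subunit gene Hps4 had 0.54, while Kif20a, a mitotic kinesin that binds Rab6, had -0.37. Their edgeR adjusted p ran from 0.0848 to 0.118.

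The 8 genes of GDIs, Rab escort proteins and the prenylation enzyme had no call and no unadjusted p under 0.05. Gdi2, which encodes a GDI, was at 253 ± 13.1 CPM in WT and 288 ± 12.3 in KO (SD, n = 3), with a log2 change of 0.15 (edgeR adjusted p = 0.439). The escort protein genes Chm and Chml had 0.19 and -0.16. Of the 41 tested effectors 0 passed, where 3.28% of all tested genes did. Before adjustment 2 lay higher and 2 lower with a p under 0.05, where 7.77% of the table was higher and 8.78% lower. Of genes tied to Rab14 in the literature, Fam116a, Rufy1 and Kif16b were at small changes. Fam116a, an older symbol of the Rab14 GEF gene Dennd6a, was at 48.3 ± 1.16 CPM in WT and 54.7 ± 0.118 in KO (SD, n = 3). Its log2 change was 0.14 (edgeR adjusted p = 0.346). The effector genes Rufy1 and Kif16b had log2 changes of -0.07 and -0.06 with TMM and 0.02 and 0.03 with library totals. Rab11fip1, which encodes an effector of Rab11 that also binds Rab14, had a larger log2 change of 0.36 (edgeR adjusted p = 0.208). Its groups did not overlap. It passed in 2 of the 7 alternatives that did not leave out 1 library, and in 0 of the 6 fits that did.

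**Figure D5:**
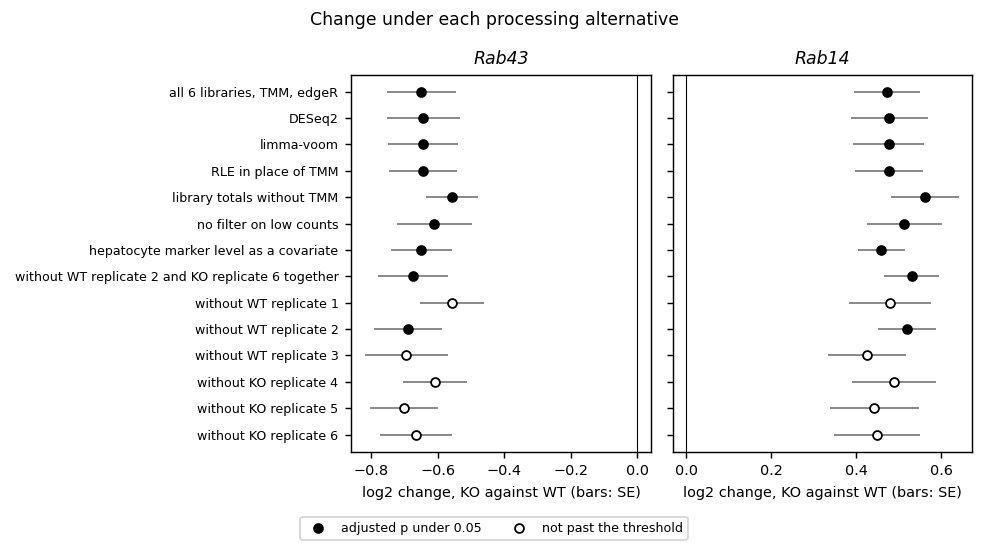
Log2 change of Rab43 and Rab14 under each alternative analysis, KO against WT, with bars for the SE and filled points where the adjusted p was under 0.05. Rab14 stays between 0.42 and 0.56 and Rab43 between -0.70 and -0.56, and the points are open where any library other than WT2 is left out on its own.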

How the data were processed

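The authors deposited raw counts per gene symbol in a gene table of 34542 genes and a table of exon and intron counts for 15543 of them, and the exon counts equal the gene counts for all 15543. STAR and HTSeq are named without versions, with builds NCBIM37 and mm10, per the submitters' processing notes. The sources used here do not give the strand setting or gene models. Globin and mitochondrial genes had been removed, per the file headers and names, and the table has 0 symbols that begin Hba, Hbb or mt-, so library sizes leave them out.

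KO and WT counts were compared by the quasi-likelihood F test of edgeR 4.0.16 (R 4.3.3) over all genes, with TMM scaling, filterByExpr at a minimum count of 10 and a minimum total of 15, and a BH adjusted p threshold of 0.05. The tests are two-sided. The SE of a log2 change comes from its F statistic. Exonic and intronic change were compared over the 12 columns of exon and intron counts with a term per library. Alternatives used DESeq2 1.42.0, limma-voom (limma 3.58.1), other scalings, no filter, a hepatocyte covariate and libraries left out. The scripts were tested on simulated counts. Depth was 24659978 to 44700229 counts per library, and intervals cover counting error only.

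Symbols were matched to GENCODE M21 (GRCm38): 29219 by the same symbol, 2174 by a RefSeq synonym and 3149 not, and of the members 55 and 1 (Rab1, as Rab1a). The tables' own build is not settled, so coordinates are those of GRCm38 only. 32 members overlap another annotated gene, and 4 share over 50% of their exon bases (Rab24, Rab2b, Rab4b and Rab43), so their counts are less certain.

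The members and lists were chosen with earlier results of these data known. Named with values in every library were Rab14, members with an adjusted p under 0.05, those with an unadjusted p under 0.05 and no overlap, the 6 of highest level per kb, and the 3 largest increases and decreases among those with a mean of at least 1 CPM. Of regulators, called genes, up to 6 with the smallest unadjusted p and 8 fixed genes were to be named, of which 1 is not reported here.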

Additional observations from a re-analysis of the deposited data

How the results depend on the processing

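The number of Rab genes called was 2. It became 4 with DESeq2 (Rab14, Rab23, Rab43 and Rab7), 6 with the hepatocyte level as covariate, 5 without WT replicate 2 and KO replicate 6 together, and 0 to 5 when 1 library was left out (5 for WT replicate 2, 0 for each other). With limma-voom, size factors in place of TMM, or no filter it stayed at 2, and with library totals it was 3. The background moved too: of all tested genes 8.65% were called with DESeq2, 17.1% with the covariate and 9.77% without WT replicate 2. Library totals gave 551 higher and 250 lower genes, against 276 and 219. Rab14 and Rab43 kept their direction and passed the threshold in all 7 alternatives other than leaving out 1 library.

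Regulators and effectors called were 3, against 17 with DESeq2, 9 with library totals, 33 with the covariate, 13 without WT replicate 2 and KO replicate 6 together, and 0 to 12 with 1 library left out. In introns 0 Rab genes were called, against 1 with DESeq2. Counting 7mer-A1 and 6mer matches moved the members with a match to 2 for miR-451a, 29 for miR-144-3p and 8 for miR-144-5p, by their wider definition. Among tested members the shares were 4.26%, 53.2% and 10.6%, against 7.95%, 37.9% and 14.5% of tested genes. Signs reversed for Rufy1 and Kif16b with library totals (0.025 and 0.030). With 1 library left out, Rab17 ran from -0.98 to 0.25, above 0 without WT replicate 2, and Rab43 introns from -0.26 to 0.022, above 0 without WT replicate 2 or KO replicate 6. Where no cause is given, the cause was not tested. The filter on low counts kept 9 members, with at most 16 counts in any library, out of the test on all 6 libraries. No paired analysis was possible because WT libraries are numbered 1 to 3 and KO libraries 4 to 6, so that no number is shared.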
